A study of Mus musculus with 8 samples.

Results

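The genes of the endothelial adherens junction and of the Tie2 system were followed in sorted lung endothelial cells by RNA-seq. They are Cdh5, Ctnnb1, Jup, Ctnnd1, Ctnna1, Pecam1, Tek, Tie1, Ptprb and Angpt2, chosen by name, and all 10 had a row among the 34899 genes of the deposited table and were among the 17067 genes tested. The cells were CD45-negative and CD31-positive cells from lungs of female C57BL6 mice, 4 labelled HF and 4 labelled LF, one library each. The labels do not spell out HF and LF, and give no age, genotype or further treatment; the series title places the work in a study of obesity, neutrophil oxidants and how tumour cells leave vessels. The question put to the data was whether transcripts of the junction and of its stabilising receptor system differed between HF and LF lung endothelium. Libraries held 10631506 to 20781564 reads in genes, and the member with the fewest reads in any library still had 927.

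VE-cadherin, encoded by Cdh5, joins neighbouring endothelial cells. Its cytoplasmic tail is held by p120-catenin near the membrane and by beta-catenin or plakoglobin further from the membrane. Alpha-catenin links the complex to actin. The angiopoietin receptor Tie2, encoded by Tek, stabilises these contacts when it is activated by angiopoietin-1, and angiopoietin-2 made by the endothelium itself can oppose that activation. Tie1 is a partner of Tie2 without a classical ligand, and the phosphatase VE-PTP, encoded by Ptprb, dephosphorylates Tie2 and binds VE-cadherin. In the lung this machinery sets how readily fluid and cells cross the capillary wall.

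The promoters of the receptor pair are shown because Tek and Tie1 encode partners of one complex and their ratio is followed below. They are the 250 bases before the annotated start in RefSeq on GRCm38.p6, written from 5′ to 3′ on the strand of the gene, with capitals on GGAA, the core letters bound by ETS factors, or on its reverse complement TTCC. Promoters were found for 5 of the 10 members, not for Cdh5, Pecam1, Ctnna1, Ptprb and Angpt2, and lie for Tek at chr4:94739039-94739288 on the plus strand and Tie1 at chr4:118489850-118490099 on the minus strand.
Tek: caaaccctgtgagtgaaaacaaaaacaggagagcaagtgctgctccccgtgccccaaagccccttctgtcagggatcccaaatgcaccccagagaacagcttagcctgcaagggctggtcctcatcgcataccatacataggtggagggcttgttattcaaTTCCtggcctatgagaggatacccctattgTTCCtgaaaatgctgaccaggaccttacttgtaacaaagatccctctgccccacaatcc
Tie1: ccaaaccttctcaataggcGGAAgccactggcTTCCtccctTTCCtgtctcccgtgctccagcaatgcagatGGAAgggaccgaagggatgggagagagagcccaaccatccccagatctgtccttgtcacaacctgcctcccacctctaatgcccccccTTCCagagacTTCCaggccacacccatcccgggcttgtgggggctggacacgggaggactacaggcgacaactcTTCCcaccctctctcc
The Tek window held 2 matches on both strands together and the Tie1 window 7, none overlapping another. Among 32851 RefSeq promoter windows of this length, 93.4% held at least 1 match, 76.8% at least 2 and 3.82% at least 7. A match is a run of letters, not a measured binding site.

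The 4 LF libraries differed among themselves. LF 1 and LF 2, the first LF pair in what follows, lay apart from LF 3 and LF 4, the second pair, on the first principal component (36.1% of the variance), at -56.4 and -50.9 against -6.79 to 39.6 for the other 6. On the second component (17.5%) it was LF 3 and LF 4 that lay apart, at -38.5 and -34.2 against -1.41 to 29.6 for the other 6. LF 1 also had the fewest reads, 10631506. The mean of 12 endothelial markers outside the member list, such as Cldn5, Emcn and Kdr, stood at 0.687 and 0.721 times the HF mean in LF 1 and LF 2, at 0.998 and 1.08 times in LF 3 and LF 4, and at 0.943 to 1.06 times across the HF libraries. All 12 were detected in every library, and Ptprc, which encodes CD45, was at 166 ± 72.8 (SD, n = 4) in HF and 199 ± 59.0 (SD, n = 4) in LF. By endothelial subtype, summed markers ran from 106473 to 126700 in HF and from 78648.5 to 96497 in LF for 7 general capillary genes. For 8 arterial genes they ran from 18322 to 22899 and from 14173 to 16794, so neither list overlapped between the groups. Among single genes tested, 5.43% did not overlap. Sums of 8 aerocyte, 8 venous and 8 lymphatic genes overlapped. The aerocyte sum was 35923 to 49309 in HF, 32810 and 29224 in LF 1 and LF 2, and 52519 and 54228 in LF 3 and LF 4. The mean was higher in HF for 7 of 7 general capillary and 6 of 6 tested arterial genes, against 53.2% of all genes. It was higher for 5 of 8 aerocyte, 4 of 7 venous and 2 of 7 lymphatic genes. With LF 1 and LF 2 left out, it was higher for 6 of 7 general capillary and 5 of 6 arterial genes, against 45.4% of all genes. It was then higher for 1 of 8 aerocyte, 4 of 7 venous and 4 of 7 lymphatic genes. In bulk libraries, fewer endothelial cells and less RNA of a gene per cell cannot be told apart. The first pair also had more reads in loci of the GENCODE biotype TEC, provisional gene models, 0.725% and 0.635% against 0.286% to 0.443%. Mitochondrial genes took 0.633% to 0.710% of reads in HF and 0.714% to 1.10% in LF, so the groups did not overlap. Summed markers of other cell types ran from 15616 to 23785 in HF and from 20376 to 32344 in LF for 10 epithelial genes, from 3121 to 5819 and from 4415 to 7829 for 9 fibroblast genes, from 2395 to 2695 and from 2751 to 4362 for 10 mural genes, and from 3824 to 7257 and from 6707 to 8279 for 12 leukocyte genes. Of these sums, only those of the mural genes did not overlap between the groups. For 9 platelet and red cell genes the sum was 23173 to 26198 in HF. It was 26164 and 25218 in LF 1 and LF 2, and 44575 and 36519 in LF 3 and LF 4. Of the tested markers, 1 of 10 epithelial, 0 of 9 fibroblast, 1 of 10 mural, 0 of 11 leukocyte and 3 of 9 platelet and red cell genes had the higher mean in HF. The only mesothelial marker tested was also lower on average in HF. With LF 1 and LF 2 set aside, limma called 5 of the 9 platelet and red cell genes lower in HF. Of all genes it called 0.662% lower. The part of these markers, and of the mitochondrial share, in the members' values was not tested.

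With all 8 libraries, no member passed the test and in none did the HF values lie wholly above or below the LF values. Levels are the authors' normalised read counts, and folds (HF over LF) come from limma on log2(value + 1), with 95% intervals and Benjamini-Hochberg adjusted p values over all genes tested. Limma called 0 of 10 members at an adjusted p under 0.05, and 0.0% of all genes, edgeR's quasi-likelihood test 0 and 0.0%, and DESeq2 0 and 1.83%. At an unadjusted p under 0.05 limma gave 0 of 10 members and 11.0% of all genes, edgeR 0 and 11.2%, and DESeq2 0 and 12.2%. Groups did not overlap in 0 of 10 members and in 5.43% of all genes. The mean was higher in HF for 8 members, all but Angpt2 and Ctnnd1, and for 53.2% of all genes. The median log2 fold change was 0.19 in the members and 0.023 over all genes. Members averaged 1174 counts (Angpt2) or more. Among the 12203 genes averaging at least 50 counts the median was 0.075, with 7714 higher in HF. For the 12 endothelial markers the median was 0.25, with 12 of 12 higher in HF, and 4 of 12 with LF 1 and LF 2 left out. The authors' deposited table gives adjusted p values from 0.485 (Ptprb and Cdh5) to 0.936 (Ctnnb1) for the members, where 2.04% of its genes are under 0.05.

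**Figure D1:**
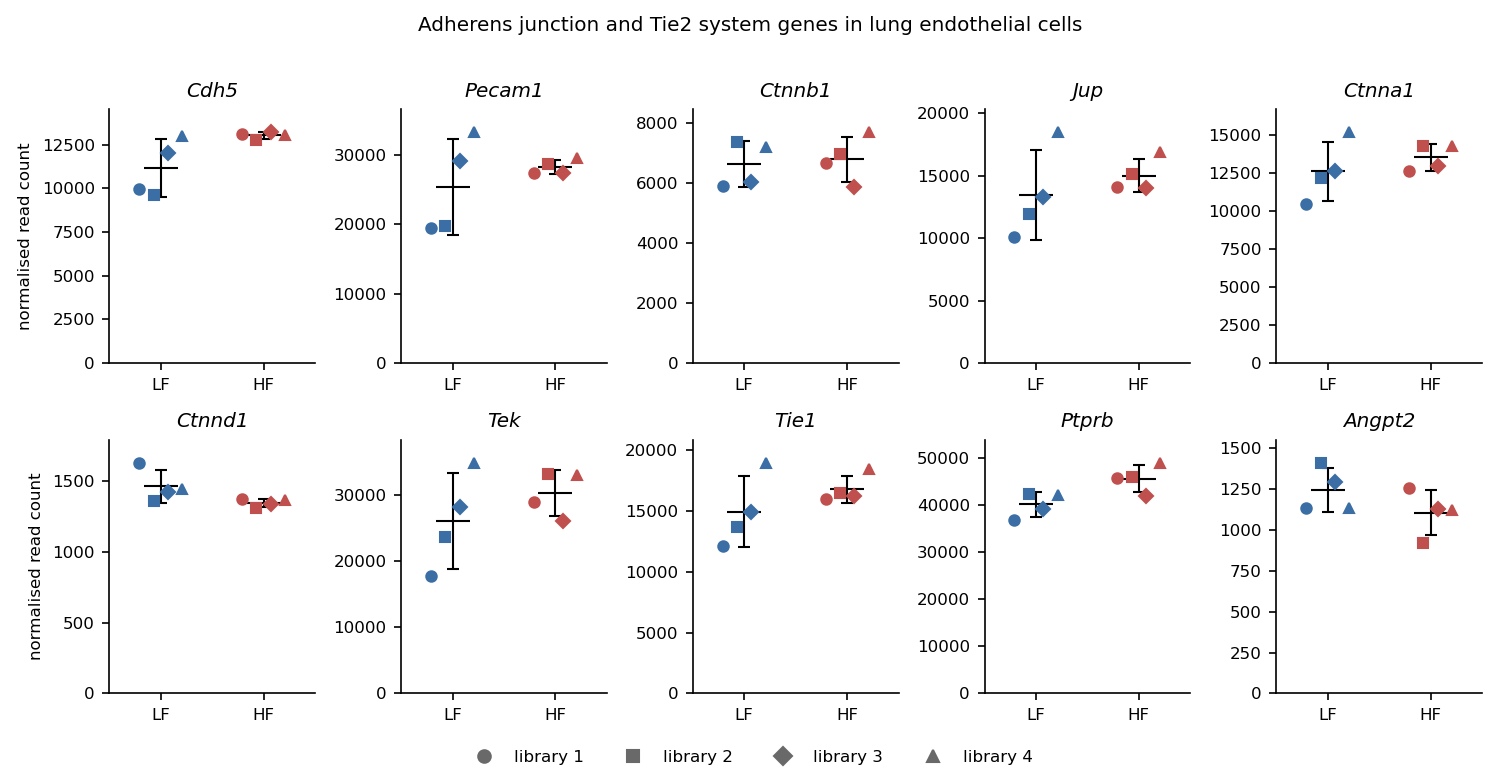
Normalised read counts (vertical axes, from 0) of the 10 members in the 4 LF and 4 HF libraries; points are libraries, the wide dash is the mean and the bar the SD. The HF points of Cdh5 lie close together at 12758 to 13204, while the LF points of Pecam1, Tek and Jup spread from low values in LF 1 and LF 2 to the highest of all in LF 4.

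Cdh5 (ENSMUSG00000031871, chromosome 8 from 104101625 to 104144511 in GENCODE M21 on GRCm38) was the most uniform member in HF. Its counts were 13138, 12758, 13204 and 13048 in HF 1 to HF 4, and 9942, 9595, 12052 and 13029 in LF 1 to LF 4. LF 1 and LF 2 were well below the rest, while LF 4 stood among the HF values, above HF 2. The fold was 1.18 (0.956 to 1.45; limma adjusted p = 0.548), the smallest unadjusted p of the 10 members at 0.113. The coefficient of variation was 1.51% in HF and 14.8% in LF.

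Beta-catenin (Ctnnb1) binds the part of the cadherin tail further from the membrane and is also a transcriptional co-activator of Wnt signalling. It had nearly the same mean in both groups. Its counts were 6662, 6956, 5873 and 7679.6 in HF and 5909, 7371, 6026 and 7201 in LF. High and low values were mixed in both groups, with a fold of 1.03 (0.838 to 1.25; limma adjusted p = 0.927). The log2 fold change was 0.038 with the first LF pair left out and 0.035 with the second. Ulk4, on the other strand, shares 759 of its exon bases, and averaged 19.0 counts.

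Plakoglobin (Jup), the close relative of beta-catenin that takes the same place on the tail, was above beta-catenin in all 8 libraries, also per kilobase of exon. Its counts were 14063, 15102, 13975 and 16855 in HF and 10094, 11965, 13312 and 18451 in LF. LF held both the lowest and the highest value, and the fold was 1.14 (0.868 to 1.50; limma adjusted p = 0.700). Alpha-catenin (Ctnna1), which couples the complex to actin filaments, was at 12585, 14227, 12964 and 14287 in HF and at 10435, 12185, 12589 and 15143 in LF. Again LF 1 was lowest and LF 4 highest, and the fold was 1.08 (0.870 to 1.35; limma adjusted p = 0.771).

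The p120-catenin gene Ctnnd1, whose product keeps VE-cadherin at the surface, had the lower mean in HF. Its counts were 1372, 1313.5, 1339.8 and 1367.5 in HF and 1631, 1358, 1426 and 1444 in LF. LF 1, the lowest library for 6 members, was the highest for this one, and 1 LF value, that of LF 2, lay within the HF range. The fold was 0.922 (0.787 to 1.08; limma adjusted p = 0.687). In GENCODE M21, 4482 of the 7319 exon bases of Ctnnd1 also belong to Gm28635 on the same strand. The sources used here do not say how reads in shared exons were assigned, so the level of Ctnnd1 is uncertain.

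Pecam1, the CD31 adhesion molecule by which the cells were sorted, was at 27426, 28666, 27351 and 29564 in HF and at 19425, 19737, 29129 and 33236 in LF. LF 1 and LF 2 lay far below, and LF 4 far above, a narrow HF range. The fold was 1.14 (0.854 to 1.53; limma adjusted p = 0.712). Its log2 level relative to the mean of the 12 endothelial markers was 1.12 ± 0.032 in HF and 1.16 ± 0.073 in LF (SD, n = 4; exact two-sided permutation p = 0.514). Because the sort selected on its protein, this gene is a check of the cells before it is a result.

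Tek, the receptor Tie2, had the largest fold among the members with all 8 libraries, and also the widest interval. Its counts were 28875, 33220.4, 26023 and 32945 in HF and 17672.5, 23622.5, 28197 and 34853 in LF. The LF values ran from below to above all HF values, and the fold was 1.19 (0.870 to 1.63; limma adjusted p = 0.661). Tie1, its partner, was at 15931, 16494, 16233 and 18422 in HF and at 12142, 13693, 14875 and 18945 in LF. In 3 LF libraries Tie1 was below every HF value, while LF 4 was above all of them, with a fold of 1.14 (0.897 to 1.44; limma adjusted p = 0.669).

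Ptprb, the phosphatase VE-PTP that restrains Tie2 and associates with VE-cadherin, had the highest counts of the 10 before scaling for length. They were 45795, 45868, 41872 and 48979.6 in HF and 36807, 42439, 39223.5 and 42068 in LF. All HF libraries except HF 3 lay above every LF library, and the fold was 1.14 (0.897 to 1.44; limma adjusted p = 0.669). Of the 8 members with the higher mean in HF, only Ctnnb1 depended less on the choice of LF pair, and the log2 fold change of Ptprb was 0.17 (first pair left out) and 0.21 (second pair left out).

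Angpt2, the ligand stored and released by activated endothelium, had the lower mean in HF. Its counts were 1256, 917, 1129.9 and 1121 in HF and 1131, 1410.5, 1291 and 1137 in LF. HF 2 was the lowest and LF 2 the highest, but HF 1 exceeded LF 1 and LF 4. The fold was 0.889 (0.731 to 1.08; limma adjusted p = 0.638), with log2 fold changes of -0.14 and -0.20 when the first or the second LF pair was left out.

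The direction of 6 members depended on which libraries were used. For Ctnnb1, leaving out LF 1, LF 3 or HF 4 alone gave log2 fold changes of -0.016, -0.0070 and -0.025, and for the other 5 the LF pairs set the direction. Leaving out LF 1 alone lowered the log2 fold change of Tek from 0.25 to 0.078, so that Cdh5, at 0.19, was ahead of it, and that of Pecam1 from 0.19 to 0.079. Without LF 4 alone Tek was at 0.40 and Pecam1 at 0.34. In that limma fit 4 members had an unadjusted p under 0.05, as did 3099 of the 17067 genes, and 0 passed after adjustment. With array weights and all libraries 1 member, Cdh5, had an unadjusted limma p under 0.05 (0.0447, adjusted 0.368), as did 2272 of the 17067 genes. Limma, fitted on the HF libraries and the second LF pair, called 0 of 10 members, where it called 3.09% of all genes higher and 0.662% lower. The mean was then higher in HF for 3 members and 45.4% of all genes, and Pecam1, Jup, Tek, Ctnna1 and Tie1 had log2 fold changes of -0.14, -0.068, -0.058, -0.033 and -0.0038. With LF 3 and LF 4 left out instead, it called 5 of 10 members higher and 0 lower, where it called 14.0% of all genes higher and 6.02% lower. The mean was then higher in HF for 8 members and 52.5% of all genes. The 5 called were Tek at a log2 fold change of 0.56 (limma adjusted p = 0.0196), Pecam1 at 0.53 (limma adjusted p = 0.00642), Jup at 0.44 (limma adjusted p = 0.0205), Cdh5 at 0.42 (limma adjusted p = 0.0105) and Tie1 at 0.38 (limma adjusted p = 0.0266). The remaining pair of LF libraries is assumed to vary like the HF libraries in these fits, and both fits share all HF libraries. The LF pairs were also told apart in these same data, by the first principal component and the endothelial markers, so these p values are descriptive. Of the 12 endothelial markers, 10 were called higher in HF with LF 3 and LF 4 left out and 0 with LF 1 and LF 2 left out.

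**Figure D2:**
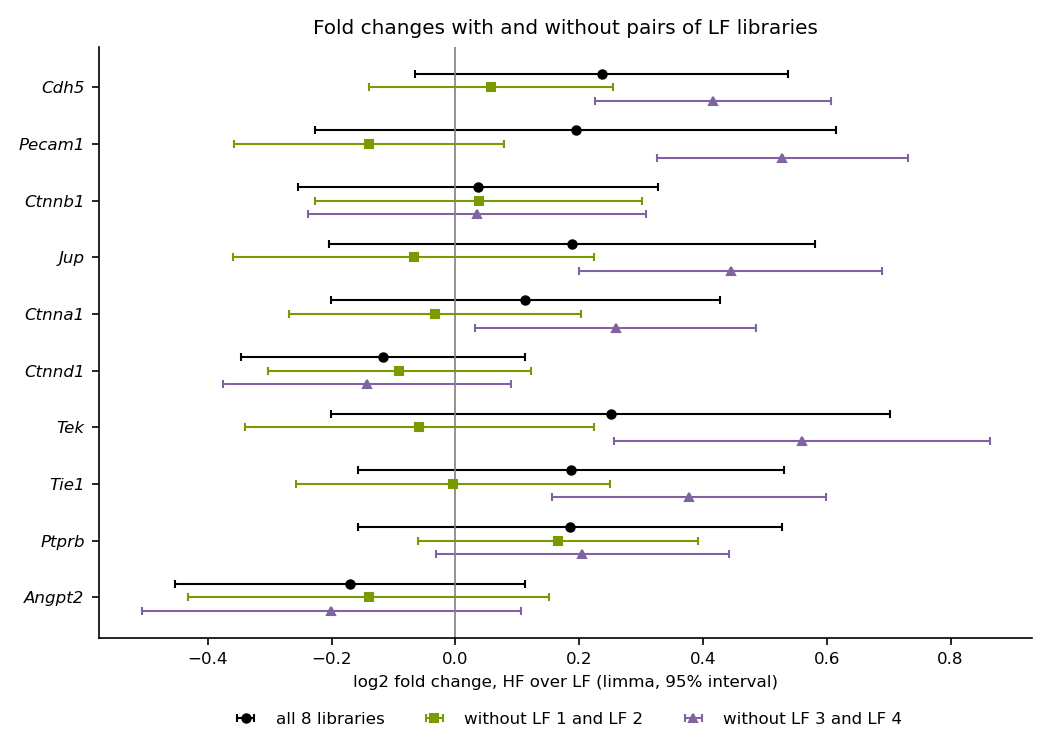
Log2 fold changes of HF over LF (horizontal axis) with 95% limma intervals for each member, with all 8 libraries and with either LF pair left out. Tek moves from 0.25 with all libraries to -0.058 and 0.56, while Ctnnb1 stays at 0.035 to 0.038 in the 3 fits.

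The low place of LF 1 and LF 2 was common among abundant transcripts. Both libraries were below all others for 6 of 10 members, namely Cdh5, Pecam1, Jup, Ctnna1, Tek and Tie1, and for 50.7% of the 3729 tested genes with a mean of at least 1000. The SD of log2 values was larger in LF than in HF for 9 of 10 members, all but Angpt2, and for 86.2% of those abundant genes. Both shares in the members were close to this background.

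Set against the 12 endothelial markers in the same library, none of the 10 members had a p under 0.05 by the exact permutation test, a comparison chosen after the data were seen. Relative to the markers, Cdh5 and Tek had HF minus LF differences of 0.0095 and 0.024 on the log2 scale (exact two-sided permutation p = 0.857 for each), and Jup, Tie1 and Ptprb of -0.039, -0.041 and -0.042 (exact permutation p = 0.714, 0.600 and 0.800). Ctnnb1 was at -0.19 (exact permutation p = 0.400) and Ctnna1 at -0.11 (exact permutation p = 0.286). The lowest were Angpt2 at -0.40 (exact permutation p = 0.200) and Ctnnd1 at -0.34 (exact permutation p = 0.114). Leaving out the first LF pair gave differences of -0.088 for Angpt2 and -0.038 for Ctnnd1, and leaving out the second gave -0.71 and -0.65. The same alternatives gave opposite signs for Cdh5 (0.11 and -0.090), Ctnnb1 (0.090 and -0.47), Ctnna1 (0.019 and -0.25), Tie1 (0.048 and -0.13), Ptprb (0.22 and -0.30), Pecam1 (-0.088 and 0.022) and Tek (-0.0058 and 0.053).

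**Figure D3:**
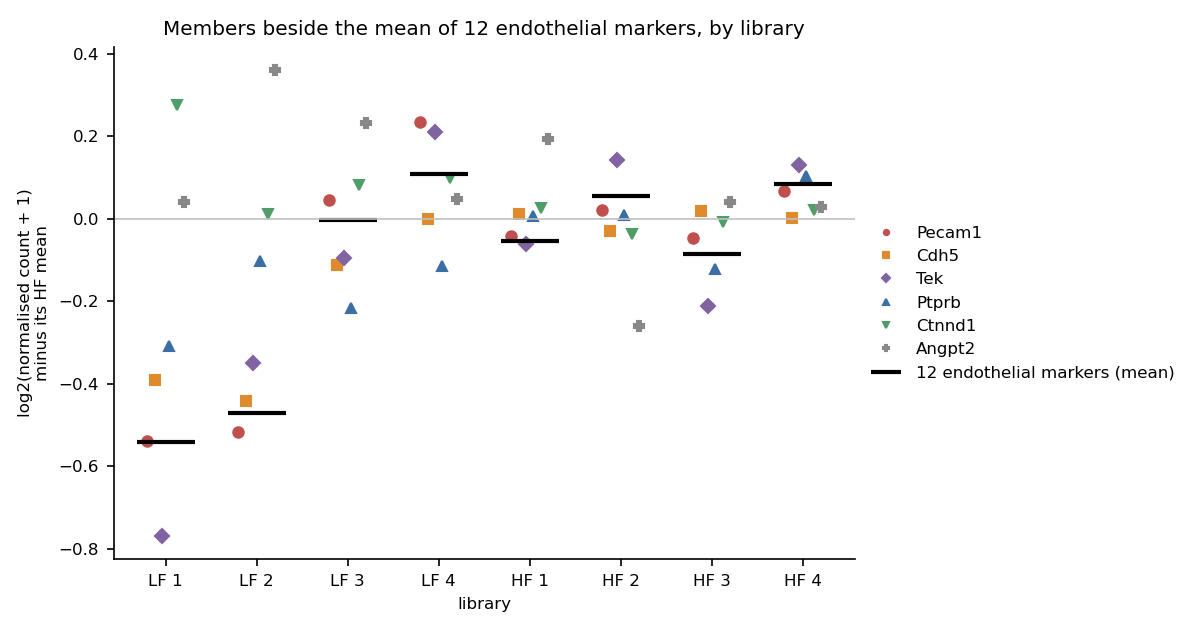
Log2(normalised count + 1) minus its HF mean (vertical axis) for 6 members in each library, with a black dash at the mean of 12 endothelial markers. In LF 1 and LF 2, where the markers are at -0.54 and -0.47, Pecam1 lies on or close to the dash, while Ctnnd1 and Angpt2 lie above 0.

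Per kilobase of exon, Tek and Pecam1 had the highest means. The mean normalised count per kilobase over the 8 libraries was 5980 for Tek, 4306 for Pecam1, 3222 for Tie1, 3216 for Ptprb, 2878 for Cdh5, 2211 for Jup, 2031 for Ctnna1, 1292 for Ctnnb1, 318 for Angpt2 and 192 for Ctnnd1. On this scale Tek exceeded 99.6% of the genes tested and Angpt2 84.0%. Tek was above Pecam1, and Pecam1 above Tie1, in all 8 libraries. Tie1 and Ptprb were not separated, with Tie1 higher in 4 of 8 libraries, and Jup was above Ctnna1 in 6 of 8. Ptprb was above Cdh5 in 7 of 8 libraries. The place of Ctnnd1 rests on a count that may leave out reads of its shared exons.

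Ratios between members within a library do not depend on library scaling, and 8 were compared between the groups. The ratio of Ctnnd1 to Cdh5 was 0.104, 0.103, 0.101 and 0.105 in HF and 0.164, 0.141, 0.118 and 0.111 in LF. Every HF ratio was below every LF ratio, with an HF minus LF difference of -0.35 on the log2 scale (exact permutation test, two-sided: p = 0.0286, the lowest value possible here; 0.229 after Benjamini-Hochberg adjustment over the 8 ratios). The difference did not pass the adjusted threshold. It was -0.15 with the first LF pair left out and -0.56 with the second left out, where the exact test of 4 against 2 cannot go below 0.0667. The numerator of this ratio is uncertain, as Ctnnd1 shares exons with Gm28635. Its denominator, Cdh5, was at 76.3% and 73.6% of the HF mean in LF 1 and LF 2. The 12 endothelial markers were at 0.687 and 0.721 times their HF mean there.

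The ratio of Angpt2, the antagonist, to its receptor gene Tek was 0.0435, 0.0276, 0.0434 and 0.0340 in HF and 0.0640, 0.0597, 0.0458 and 0.0326 in LF. LF 1, LF 2 and LF 3 were above every HF library and LF 4 was not, and the difference was -0.42 on the log2 scale (exact two-sided permutation p = 0.143; adjusted p = 0.571). It was -0.082 when the first LF pair was left out and -0.76 when the second was. Tie1 to Tek was 0.558 ± 0.052 in HF and 0.584 ± 0.072 in LF, and Ptprb to Tek 1.52 ± 0.104 and 1.62 ± 0.395 (SD, n = 4; exact permutation p = 0.600 and 0.771).

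In the cadherin complex, Ctnnb1 to Cdh5 was 0.521 ± 0.061 in HF and 0.604 ± 0.116 in LF, and Ctnna1 to Cdh5 1.04 ± 0.079 and 1.13 ± 0.107 (SD, n = 4; exact permutation p = 0.286 and 0.229). The ratio of Jup to Ctnnb1 was 2.21 ± 0.116 in HF and 2.03 ± 0.441 in LF (SD, n = 4; exact permutation p = 0.400). By library this ratio was 1.71 and 1.62 in LF 1 and LF 2, 2.21 and 2.56 in LF 3 and LF 4, and 2.11 to 2.38 in HF. Pecam1 to Cdh5 was 2.17 ± 0.103 in HF and 2.24 ± 0.285 in LF (SD, n = 4; exact permutation p = 0.714). After adjustment over the 8 ratios, the p values other than that of Ctnnd1 to Cdh5 ran from 0.571 to 0.771.

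**Figure D4:**
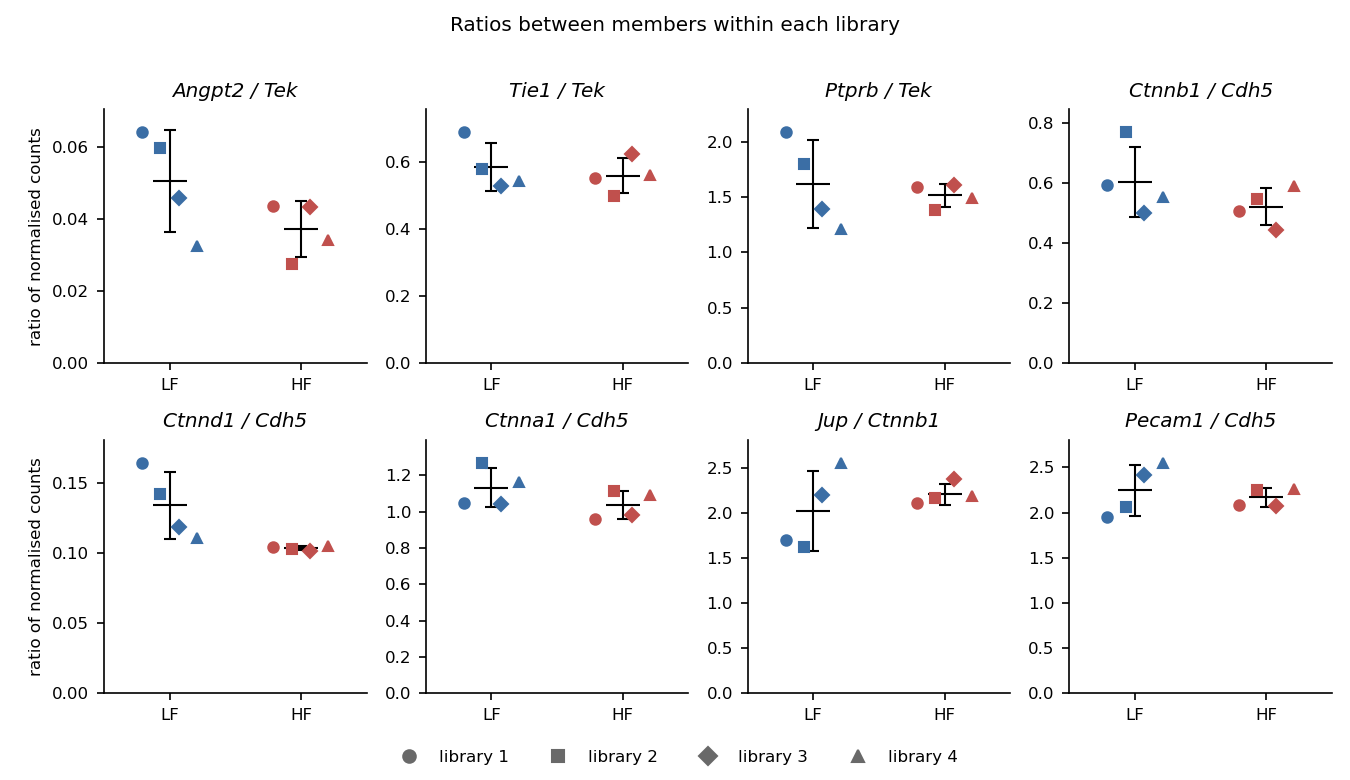
Ratios of normalised counts between 2 members in the same library (vertical axes, from 0; not scaled for length) for 4 LF and 4 HF libraries, with mean and SD. The HF ratios of Ctnnd1 to Cdh5 lie at 0.101 to 0.105, below the LF ratios of 0.111 to 0.164. The level of Ctnnd1 is uncertain because it shares exons with Gm28635.

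Some members kept a nearly fixed proportion over all 8 libraries. The SD of the log2 ratio was 0.069 for Jup and Tie1, the least of the 45 pairs, and 0.073 for Ctnna1 and Tie1, against 0.42 for Tek and Angpt2, the most. Among 6306 other genes with a mean of at least 500, those in the steadiest proportion to Cdh5 were Ddx39b, Baiap2, Exoc7, Golga5 and Bet1, with SDs of 0.037 to 0.053 where the median was 0.20. For Tek they were Plekha2, Coro1b, Far1, Iars and Hsdl1, with SDs of 0.046 to 0.066 against a median of 0.26. These are descriptions over 8 libraries that share the low LF pair.

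Beyond the members, 94 genes of 9 lists around the junction and the Tie receptors were tested. None passed limma's adjusted threshold, with adjusted p values of 0.162 and above; 13 were higher and 4 lower in HF at an unadjusted p under 0.05, where 6.36% and 4.67% of all genes were. The median log2 fold change was 0.091, against 0.023 over all genes. Of the 94, 61 were higher on average in HF, against 53.2% of all genes. Among the 12203 genes averaging at least 50 counts, the median was 0.075 and HF exceeded LF for 7714. With the first LF pair left out, limma called 9 of these genes higher and 0 lower (9.57% and 0.0%, against 3.09% and 0.662% of all genes). The 9 were Rasa1, Grb2, Fyn, Ptprm, Rap1b, Rasip1, Piezo1, Nkd1 and Klf2. With the second left out it called 10 higher and 4 lower (10.6% and 4.26%, against 14.0% and 6.02% of all genes, so both shares were below the background), the 4 being Svep1, Cdh1, Lef1 and Erg. The genes named below are mostly those with the smallest p of their list with all libraries, up to 3 per list. Their low p values and groups without overlap follow in part from that choice. For the counts per list, the shares over all genes tested were 53.2% with the higher mean in HF and 5.43% without overlap. With the first LF pair left out 45.4% had the higher mean in HF, and with the second 52.5%.

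Ligands of the Tie receptors other than Angpt2 were both lower on average in HF. Angpt1, the Tie2 agonist made mainly by cells outside the endothelium, was at 503 ± 92.6 in HF and 554 ± 80.7 in LF (SD, n = 4), a fold of 0.906 (0.717 to 1.14). Svep1, a matrix protein that binds Tie1, was at 63.8 ± 23.9 and 145 ± 28.4, a fold of 0.423 (0.27 to 0.664; limma adjusted p = 0.166). Its groups did not overlap, and the authors' deposited table gives an adjusted p of 0.00965. It stands beside the fibroblast markers, of which 0 of 9 had the higher mean in HF. Angpt4 was too low to test.

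Of 14 genes of Tie2 signalling, 8 had the higher mean in HF, with 3 higher and 1 lower at an unadjusted p under 0.05. Rasa1, a GTPase-activating protein of Ras, was at 2149 ± 379 in HF and 1346 ± 254 in LF (SD, n = 4), a fold of 1.60 (1.25 to 2.05; limma adjusted p = 0.167) with no overlap of the groups. The adaptor gene Grb2 had a fold of 1.83 (1.239 to 2.72; limma adjusted p = 0.232), and Grb14, another adaptor, 0.772 (0.623 to 0.955). The log2 fold change of Grb2 was 1.37 with the first LF pair left out (limma adjusted p = 0.00407) and 0.39 with the second left out (limma adjusted p = 0.181). Foxo1, the transcription factor that Tie2 signalling holds inactive and that induces Angpt2, was at 1899 ± 471 and 1495 ± 395, a fold of 1.27 (0.924 to 1.76; limma adjusted p = 0.565). The log2 fold change of Foxo1 was 0.68 with the first LF pair left out (limma adjusted p = 0.0849) and 0.017 with the second left out.

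Among kinases, phosphatases and proteases that act on VE-cadherin, 12 of 16 had the higher mean in HF, where 53.2% of all genes did. Of these, 3 had an unadjusted p under 0.05, where 6.36% of all genes were higher at that threshold. With the first LF pair left out, 9 of 16 had the higher mean in HF, against 45.4% of all genes. Fyn and Ptprm were called with that pair left out, at limma adjusted p values of 0.00327 and 0.0144, and not with the second left out. Fyn, a Src family kinase of junctions, was at 2198 ± 373 in HF and 1277 ± 392 in LF (SD, n = 4), a fold of 1.76 (1.29 to 2.41; limma adjusted p = 0.176). The receptor phosphatases Ptprj and Ptprm, relatives of Ptprb that also sit at cell contacts, had folds of 1.44 (1.14 to 1.82; limma adjusted p = 0.230) and 1.35 (1.09 to 1.67; limma adjusted p = 0.288). The groups of these 3 genes, named for the smallest p of their list, did not overlap, as in 5.43% of all genes.

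The Rap1 and cerebral cavernous malformation genes, whose products anchor VE-cadherin to the cortex, had 10 of 12 higher means in HF, and 7 of 12 with the first LF pair left out. Rap1b, the GTPase that tightens endothelial contacts, was at 10928 ± 1281 in HF and 7136 ± 467 in LF (SD, n = 4), a fold of 1.53 (1.25 to 1.86; limma adjusted p = 0.162). Its groups did not overlap, its limma adjusted p was 0.0162 with the first LF pair left out and 0.00818 with the second left out, and the authors' deposited table gives an adjusted p of 8.28e-04. All of these values come from the same libraries, and Rap1b was named for the smallest p of its list, so they are not separate support. Rasip1, a Rap1 effector, was at 4246 ± 1474 and 2165 ± 550.2, a fold of 1.92 (1.34 to 2.75; limma adjusted p = 0.179). Ccm2, a scaffold of the malformation complex, had a fold of 1.21 (0.956 to 1.54). Ccm2 stood at -0.0071 on the log2 scale with the first LF pair left out and 0.56 with the second left out (limma adjusted p = 0.00966).

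Cadherins and nectins beside Cdh5 had 4 of 10 higher means in HF, and actin linkers of the junction 8 of 14, with none at an unadjusted p under 0.05 in either list. Afdn, the nectin-bound scaffold afadin, had a fold of 1.20 (0.982 to 1.47), Cdh1, the epithelial cadherin, 0.577 (0.302 to 1.10), and Cdh11, a mesenchymal cadherin, 0.773 (0.520 to 1.15). Cdh1 was at a log2 fold change of -0.050 with the first LF pair left out and of -1.54 with the second left out (limma adjusted p = 0.0133). The polarity scaffold Pard3 had a fold of 1.25 (0.997 to 1.58), Plekha7 0.641 (0.304 to 1.35) and Amotl1 0.917 (0.781 to 1.08).

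With all libraries, all 6 partners of junctional shear sensing had the higher mean in HF, and 5 of 6 had it with the first LF pair left out. The G protein gene Gna11 had a fold of 1.40 (1.14 to 1.73; limma adjusted p = 0.217) with no overlap, the mechanosensitive channel Piezo1 1.36 (1.05 to 1.76), Plxnd1 1.20 (0.975 to 1.48), and Kdr, the VEGF receptor that acts with VE-cadherin and CD31, 1.01 (0.780 to 1.31). Kdr turned to a log2 fold change of -0.23 with the first LF pair left out and was at 0.26 with the second left out. Piezo1 was at 0.73 (limma adjusted p = 0.0141) and 0.15 in the same fits.

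Of 9 targets and effectors of beta-catenin, 3 had the higher mean in HF. Nkd1, a feedback inhibitor of Wnt signalling, was at 5741 ± 740.2 in HF and 3717 ± 481 in LF (SD, n = 4), a fold of 1.54 (1.25 to 1.91; limma adjusted p = 0.163). Tcf7 had a fold of 1.33 (1.04 to 1.71), while Lef1, which like Tcf7 encodes a DNA-binding partner of beta-catenin, had 0.595 (0.41 to 0.864; limma adjusted p = 0.293). The groups of Nkd1 and Lef1 did not overlap. Of 12 regulators of endothelial identity, 10 had the higher mean in HF, 7 with the first LF pair left out and 8 with the second. Erg, the ETS factor that activates Cdh5, was the exception with the smallest p, at 706 ± 75.5 in HF and 943 ± 111 in LF (SD, n = 4), a fold of 0.750 (0.616 to 0.912; limma adjusted p = 0.261) with no overlap of the groups. The log2 fold change of Erg was -0.27 with the first LF pair left out and -0.56 with the second left out (limma adjusted p = 0.0134), and that of Klf2 was 1.59 (limma adjusted p = 0.00555) and 0.63. Klf2 and Klf4, factors induced by flow, had folds of 2.16 (1.39 to 3.35; limma adjusted p = 0.191) and 1.19 (0.98 to 1.45). In the authors' deposited table, Nkd1, Rasip1, Klf2, Rasa1 and Fyn have adjusted p values of 0.00472, 0.0108, 0.0149, 0.0169 and 0.0234, where limma's adjusted p for each is above 0.05.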

How the data were processed

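RNA from CD45-negative, CD31-positive lung cells of 4 HF and 4 LF mice was isolated with TRIzol LS and made into SMART-Seq libraries, per the labels' protocols. Per the submitters' processing notes, DESeq2 1.24.0, featureCounts 2.0.0 and STAR 2.6.1b were used; which build, annotation and strand setting went with them is not given. The authors deposited a signal per gene and library, the read count divided by a size factor, not scaled for length. Per the file headers, the table also holds the authors' log2 fold change and its error, the p-value before and after adjustment, and a Wald score.

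Whole reads were recovered from each library's step, and 100% of values were whole within 0.01 reads. Library totals of 10631506 to 20781564 set the counting precision, which covers counting error only, since reads amplified by PCR can repeat a molecule. Positions, exon lengths and overlaps came from GENCODE M21 on GRCm38, where all 34899 gene IDs were found.

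A normalised count of 10 or more in 4 or more libraries was required, and the 17067 genes that had it were fitted by limma 3.58.1 with a mean-variance trend on log2(value + 1), two-sided, threshold 0.05, with 12.3 degrees of freedom. The fit was tested on simulated counts of 16663 genes, 200 of them given a log2 change of 2, of which 92% were recovered, with 5.15% of calls false. Changes as small as those of the members, and a split among the LF libraries, were not simulated, so this does not give the power for the members. edgeR 4.0.16 and DESeq2 1.42.0 were run on the recovered reads. Ratios were compared by exact permutation in scipy 1.17.1. Alternatives were other pseudocounts and filters, quantile and TMM scaling, array weights, the replicate number as a block, and leaving out libraries.

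The members and gene lists were chosen with earlier results of these data known. From each wider list up to 3 genes with the smallest p were named, with Angpt1, Foxo1, Kdr and Ptprc in any case, and 5 genes each in steadiest proportion to Cdh5 and Tek.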

Additional observations from a re-analysis of the deposited data

Results flagged for a closer look

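Of 94 groups of 4 libraries examined, over members, ratios and named genes, 3 held a library set apart from the other 3 by a gap above Dixon's critical value at the 95% level, and chance gives about 1 in 20. None was a member or a ratio. Afdn was at 3633 in LF 1, above the other LF libraries. Ptprm was at 9202 in HF 4, above the other HF libraries, and Plxnd1 was at 792 in HF 2, below the other HF libraries.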

How the results depend on the processing

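The count of genes called was 0 with all libraries by limma and by edgeR (1905 genes at an unadjusted p under 0.05), 313 by DESeq2, 1 without a filter, 0 at a threshold of 0.10, 641 with the first LF pair (LF 1, LF 2) left out and 3421 with the second (LF 3, LF 4) left out. Leaving out 1 library gave 0 to 1. The members with the higher mean in HF numbered 8, 3 with the first pair left out, 6 with quantile normalisation and 7 to 8 with 1 library left out. Leaving out the first pair, the log2 fold changes turned to -0.14 for Pecam1, -0.068 for Jup, -0.058 for Tek, -0.033 for Ctnna1 and -0.0038 for Tie1. With quantile normalisation Ctnnb1 turned to -0.088 and Ctnna1 to -0.018, and Ctnnb1 ranged from -0.025 to 0.104 with 1 library left out. Relative to the endothelial markers, Pecam1, Ctnnb1, Ctnna1, Jup, Tie1 and Ptprb turned to -0.033, -0.19, -0.11, -0.039, -0.041 and -0.042. None of these reversals passed a test.

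Among ratios, leaving out the first pair turned the differences to 0.054 for Tie1 to Tek, 0.22 for Ptprb to Tek and -0.11 for Jup to Ctnnb1, and leaving out the second turned Pecam1 to Cdh5 to 0.11. With 1 library left out, Tie1 to Tek ranged from -0.12 to 0.016, Ptprb to Tek from -0.196 to 0.066, Pecam1 to Cdh5 from -0.106 to 0.022 and Ctnnd1 to Cdh5 from -0.44 to -0.25. Ctnnd1 to Cdh5 had an exact p of 0.0571 in each of those, the smallest that 3 against 4 allows, and was at -0.15 and -0.56 without an LF pair. With the replicate block it was -0.35 (exact sign-flip p = 0.125, the smallest of 4 pairs). The cause of these shifts was not tested.

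The block called 0 genes and 0 members. In same-numbered libraries, deviations from the group means correlated at 0.115, -0.22, -0.14 and 0.18 across genes. HF 1 and HF 3 correlated at 0.115 to 0.306 with LF 1 and LF 2. With LF 3 and LF 4 they were at -0.204 to -0.143. HF 2 and HF 4 ran the other way, at -0.222 to -0.141 with LF 1 and LF 2. With LF 3 and LF 4 these HF libraries were at 0.16 to 0.18. These values do not show whether same-numbered libraries were paired, and the source of the pattern was not tested. Every member had 927 reads or more in each library.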
